A study of Mus musculus with 8 samples.

Results

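The genes described here encode enzymes or enzyme subunits of the tricarboxylic acid (TCA) cycle that work in the mitochondrial matrix. They are Cs, Idh3a, Idh3b, Idh3g, Ogdh, Dlst, Suclg1, Fh1 and Mdh2, chosen by their gene symbols. Succinate dehydrogenase, the enzyme of the cycle in the inner membrane, was left out of this choice and is given only for comparison. All 9 genes are among the 22065 named genes of the count table. All 9 also passed the filter on low counts, which left 16444 genes for testing, and none had fewer than 247 reads in any library.

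The study asked what loss of MITOL does to hematopoietic stem cells (HSCs), the cells that sustain blood formation. Mitol, also named Marchf5, encodes an E3 ubiquitin ligase of the mitochondrial outer membrane. HSCs were sorted from bone marrow of C57BL/6 mice aged 8 to 10 weeks by the phenotype Lineage- EPCR+ CD48- CD150+, and each RNA-seq library was made from 100 cells. The 4 libraries named MitolΔ/Δ here, labelled Mitol KO, came from MitolFlox/Flox; MX1-cre+ mice, and the 4 control libraries from MitolFlox/Flox; MX1-cre- littermates. Both groups carried the floxed alleles and both received Poly:IC, with the cells taken 1 week later. MX1-cre is driven by an interferon-responsive promoter, so recombination is not limited to HSCs, and the presence of Cre and the loss of Mitol cannot be told apart in this design. The labels number the libraries but do not tie them to separate mice, so the p-values measure the spread between these libraries, which may be technical.

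Reads on named genes summed to between 7214935 and 12398138 per library. The targeted gene Marchf5 had a log2 fold change of -0.15 (SE 0.13, adjusted p = 0.498 by edgeR), with 232 to 308 normalized counts in MitolΔ/Δ and 262 to 333 in control HSCs. A total per gene does not show the deleted exons apart, so it does not check the labels. All 10 HSC markers were in the table, and their summed level was 28460 to 32690 in MitolΔ/Δ and 40780 to 48080 in control HSCs, with Kit and Hlf lower by the test. All 12 G2/M phase genes rose, to a summed level of 6232 to 13170 against 2992 to 6436. The 8 red-cell genes summed to 1065 to 3623 in MitolΔ/Δ, above every control library (463 to 896). The sum was highest in MitolΔ/Δ replicate 3, with 1048 normalized counts of Hbb-bs against at most 19.7 in any other library, while Hbb-bt was 1432 in replicate 3 and 1408 in replicate 4. The 8 neutrophil genes present, of 10 listed, summed to 485 to 1023 against 405 to 616, most of it Prtn3 (462 to 1006 against 332 to 566). Elane and Mpo were at 12.8 or less in every library, and S100a8 and S100a9 were at 1.57 or less in MitolΔ/Δ and reached 51.2 and 21.3 in control HSCs. Among markers of B-lineage cells (8 genes), T cells (7) and mast cells or basophils (8), 4, 3 and 1 were present, and their sums were 136.5 to 150.3, 189 to 259 and 7.32 to 13.8 in MitolΔ/Δ HSCs and 145.5 to 204, 171.5 to 200.5 and 11.3 to 21.1 in control HSCs. The part of these markers in the values below was not tested, and in bulk samples fewer cells of a type and less RNA per cell cannot be told apart.

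The TCA cycle oxidizes the acetyl group of acetyl-CoA to carbon dioxide and hands its electrons to NAD and ubiquinone, from which the respiratory chain draws. Its intermediates also feed the synthesis of lipids, heme and amino acids. Quiescent HSCs are known for a low rate of respiration and a reliance on glycolysis, and mitochondrial activity rises when they enter the cell cycle and differentiate.

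All 9 enzyme genes had a log2 fold change above 0 in MitolΔ/Δ against control HSCs, a direction that 47.7% of all tested genes had. Of the 9, 4 rose at an adjusted p-value under 0.05, namely Cs, Idh3a, Ogdh and Mdh2, and 0 fell, by edgeR's quasi-likelihood test, adjusted over all tested genes after Benjamini and Hochberg. Among all tested genes, 8.43% were past this threshold and 4.68% rose. At an unadjusted p-value under 0.05, Fh1 and Dlst joined them, for 6 in all, where 26.4% of all tested genes passed this level and 13.6% did so as higher. The median log2 fold change of the 9 was 0.46, beside -0.02 for all tested genes. In 3 genes, Cs, Fh1 and Mdh2, every MitolΔ/Δ library lay above every control library. Groups that did not overlap in this direction were found in 8.17% of all tested genes, and in either direction in 15.4%.

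**Figure D1:**
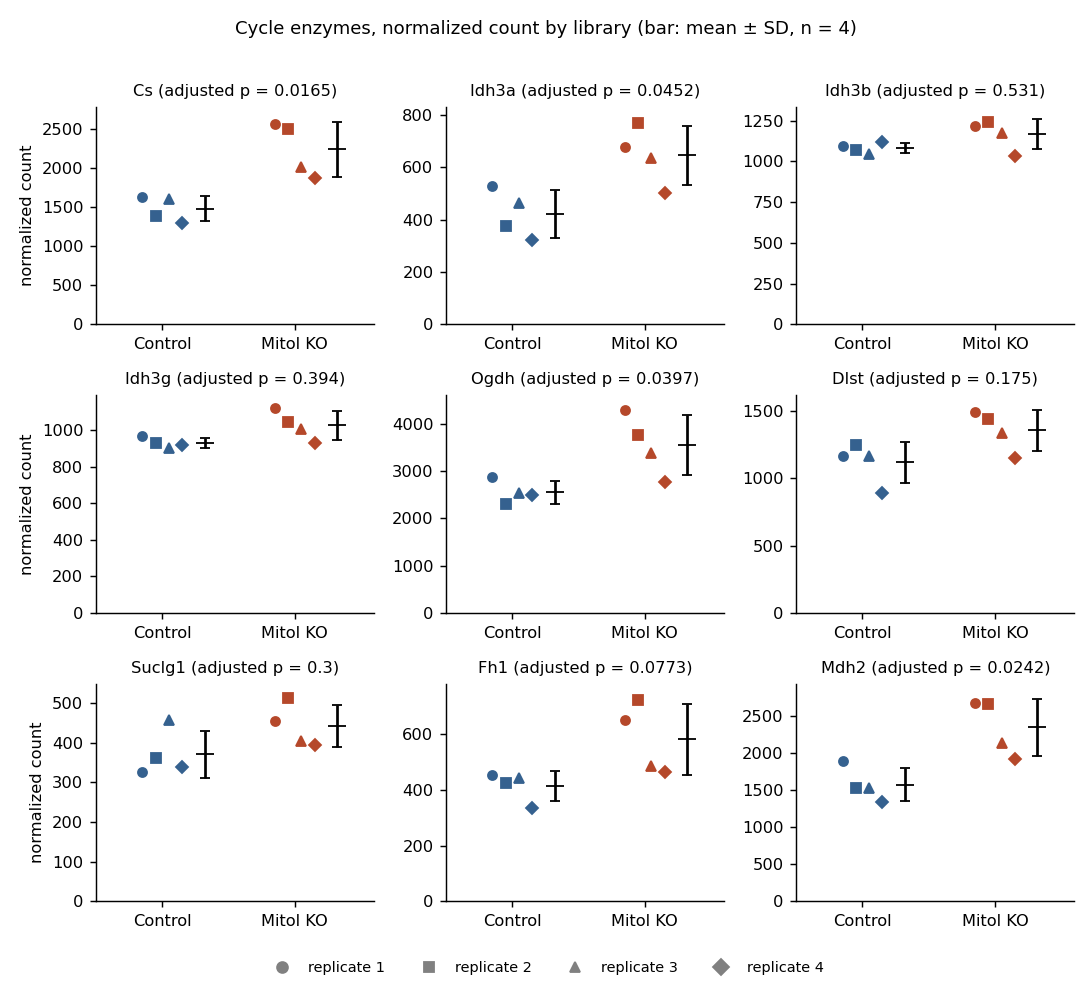
Normalized counts of the 9 enzyme genes in each library, on a linear axis that starts at 0. Blue points are the 4 control and red points the 4 MitolΔ/Δ libraries, marker shapes give the replicate number, and bars give the mean ± SD (n = 4). Cs, Fh1 and Mdh2 show groups that do not overlap, while those of Idh3b and Idh3g overlap.

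The first step is that of Cs, citrate synthase, which joins acetyl-CoA and oxaloacetate and sets the entry into the cycle. On GRCm39, the build of all positions here, Cs spans bases 128172837 to 128198363 of chromosome 10. Normalized counts, reads divided by the size factor of the library, were 2566, 2500, 2007 and 1874 in MitolΔ/Δ replicates 1 to 4 and 1634, 1382, 1597 and 1300 in control replicates 1 to 4. The lowest MitolΔ/Δ library was above the highest control library. The log2 fold change was 0.58 (SE 0.12, adjusted p = 0.0165 by edgeR, 4 of 4 libraries above all controls), the lowest adjusted p of the 9. RefSeq promoters, the 250 bases before and 50 bases after a start site, were searched for 6 short motifs on both strands (NRF1, estrogen-related receptor, E-box, ETS, SP and YY1). The matches are shown here for Cs, Ogdh, Mdh2, Fh1 and the subunits Idh3b and Idh3g, so that their start regions can be read side by side. Idh3a, which also rose, had no promoter entry. Each line gives 30 bases on the strand of the gene, 5′ to 3′, with the match in capitals. Distances are to the first base of the match. The promoter of Cs held the GC box of the SP family, GGGCGG or its complement CCGCCC, in 3 places, at chr10:128173508-128173537, chr10:128173563-128173592 and chr10:128173587-128173616 (plus strand).
Cs, 76 bases before the start: aaggctcagatcCCGCCCctcttccatttt
Cs, 21 bases before the start: gtcgccggagggGGGCGGgctcaagtttcg
Cs, from base 4 after the start: gtttcgggcagaGGGCGGggcctcgccgag

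The third step, the oxidation of isocitrate to 2-oxoglutarate, is run by the NAD-dependent isocitrate dehydrogenase IDH3. Its catalytic subunit is encoded by Idh3a, on chromosome 9 from 54493575 to 54514730. Idh3a had 676, 769, 635 and 500 normalized counts in MitolΔ/Δ replicates 1 to 4 and 528, 374.5, 465 and 322 in the controls. The groups overlapped only by MitolΔ/Δ replicate 4, which fell below control replicate 1. Idh3a rose with a log2 fold change of 0.60 (SE 0.17, adjusted p = 0.0452 by edgeR, 3 of 4 libraries above all controls), the largest value of the 9 and the one nearest to the threshold among those called.

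The other subunits of IDH3, encoded by Idh3b on chromosome 2 from 130121227 to 130126467 and by Idh3g on chromosome X from 72820644 to 72830719, are not catalytic alone and shape the response of the enzyme to its effectors. Idh3b stood at 1218, 1243, 1171 and 1035 normalized counts in MitolΔ/Δ replicates 1 to 4 and at 1096, 1067, 1043 and 1117 in the controls. Idh3g stood at 1125, 1046, 1010 and 932 in MitolΔ/Δ and at 971, 933, 906 and 921 in control replicates. In both genes 3 MitolΔ/Δ libraries were above all controls, by little, and replicate 4 was among or below them. The log2 fold change of Idh3b was 0.09 (95% interval -0.09 to 0.28, adjusted p = 0.531 by edgeR) and that of Idh3g 0.12 (95% interval -0.06 to 0.31, adjusted p = 0.394 by edgeR), so neither passed the test. No GC box was in the promoters of these genes. Both held the ETS family core, CCGGAAG or its complement CTTCCGG, at chr2:130126358-130126387 and chrX:72830589-72830618 (minus strand in both), and Idh3g also the YY1 core, AAGATGG, at chrX:72830615-72830644.
Idh3b, 5 bases before the start: gaccgcgctcgCTTCCGGcgtcacttcccc
Idh3g, 104 bases before the start: tgctctaggcaCCGGAAGggggcgtaagaa
Idh3g, 130 bases before the start: ttcccctccccAAGATGGcggaacagtgct

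The next step converts 2-oxoglutarate to succinyl-CoA in the 2-oxoglutarate dehydrogenase complex. Ogdh, on chromosome 11 from 6241551 to 6309233, encodes its first component, which removes carbon dioxide from the substrate. Ogdh had 4280, 3764, 3386 and 2770 normalized counts in MitolΔ/Δ replicates 1 to 4 and 2878, 2294, 2526 and 2501 in the controls. MitolΔ/Δ replicate 4 lay below control replicate 1, and the other 3 were above every control. Ogdh rose with a log2 fold change of 0.46 (SE 0.12, adjusted p = 0.0397 by edgeR). Of the 6 RefSeq starts of Ogdh, that nearest to the annotated gene start held 1 GC box, at chr11:6241611-6241640 (plus strand).
Ogdh, from base 27 after the start: cgccacacgccgGGGCGGggctgagagttt

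Dlst, on chromosome 12 from 85157027 to 85182486, encodes the second component, the succinyltransferase that carries the lipoyl arm. It had 1496, 1444, 1337 and 1150 normalized counts in MitolΔ/Δ and 1163, 1248, 1168 and 894 in control replicates 1 to 4. The groups overlapped, with MitolΔ/Δ replicate 4 below 3 of the controls. Its log2 fold change of 0.26 (SE 0.12, adjusted p = 0.175 by edgeR) did not pass the test. In the promoter of Dlst lay 3 GC boxes and 1 ETS core, which are not shown.

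Suclg1, on chromosome 6 from 73225365 to 73253894, encodes the alpha subunit shared by both forms of succinyl-CoA synthetase, the step that yields a nucleoside triphosphate directly. Its normalized counts were 455, 512, 406 and 395 in MitolΔ/Δ and 326, 361, 458 and 339 in control replicates. Only MitolΔ/Δ replicate 2 exceeded all controls, and control replicate 3 lay above the other 3 MitolΔ/Δ libraries. The log2 fold change of Suclg1 was 0.23 (95% interval -0.06 to 0.53, adjusted p = 0.300 by edgeR).

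Fh1, on chromosome 1 from 175425290 to 175453205, encodes fumarase, which hydrates fumarate to malate. Fh1 had 650, 723, 485 and 464.5 normalized counts in MitolΔ/Δ and 454, 425, 443 and 336 in control replicates 1 to 4. The groups did not overlap, but MitolΔ/Δ replicates 3 and 4 were close to the highest control. The log2 fold change was 0.47 (SE 0.15, adjusted p = 0.0773 by edgeR), which missed the threshold although it was larger than that of Ogdh. The promoter of Fh1 held 1 GC box, at chr1:175453271-175453300 (minus strand).
Fh1, 87 bases before the start: agggaaggcaacCCGCCCcattagttatta

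The last step is that of Mdh2, malate dehydrogenase, which renews oxaloacetate and also serves the malate-aspartate shuttle. Mdh2 lies on chromosome 5 from 135807292 to 135820882. Its normalized counts were 2674, 2660, 2141 and 1915 in MitolΔ/Δ replicates 1 to 4 and 1890, 1530, 1536 and 1348 in the controls. Replicate 4 of the MitolΔ/Δ libraries was just above control replicate 1, and the groups did not overlap. Mdh2 rose with a log2 fold change of 0.56 (SE 0.13, adjusted p = 0.0242 by edgeR). Its promoter held 2 GC boxes, at chr5:135807253-135807282 and chr5:135807489-135807518 (plus strand).
Mdh2, 244 bases before the start: ggcaagGGGCGGggtaggaggcgggggaag
Mdh2, 2 bases before the start: tggctctggaccGGGCGGccactgcgcaga

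Set in the order of the cycle, the log2 fold changes of the 9 genes were largest for Idh3a, Cs and Mdh2 and smallest for Idh3b, Idh3g and Suclg1. Dld, Sucla2, Suclg2 and the 4 subunits of succinate dehydrogenase also had log2 fold changes above 0, in 7 of 7. Of these, 2 rose by the test, Sdhb, the iron-sulfur subunit, with a log2 fold change of 0.48 (SE 0.13, adjusted p = 0.0423 by edgeR), and Sdhd, a membrane anchor, with 0.55 (SE 0.14, adjusted p = 0.0346). In both, and in Dld and Sdha, the groups did not overlap, as in 8.17% of all tested genes in this direction. Over these 16 genes of the cycle, 16 were higher, 6 rose and 0 fell. Among all tested genes, 47.7% were higher and 4.68% rose. Differences between the steps were tested only for the subunit ratios below.

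**Figure D2:**
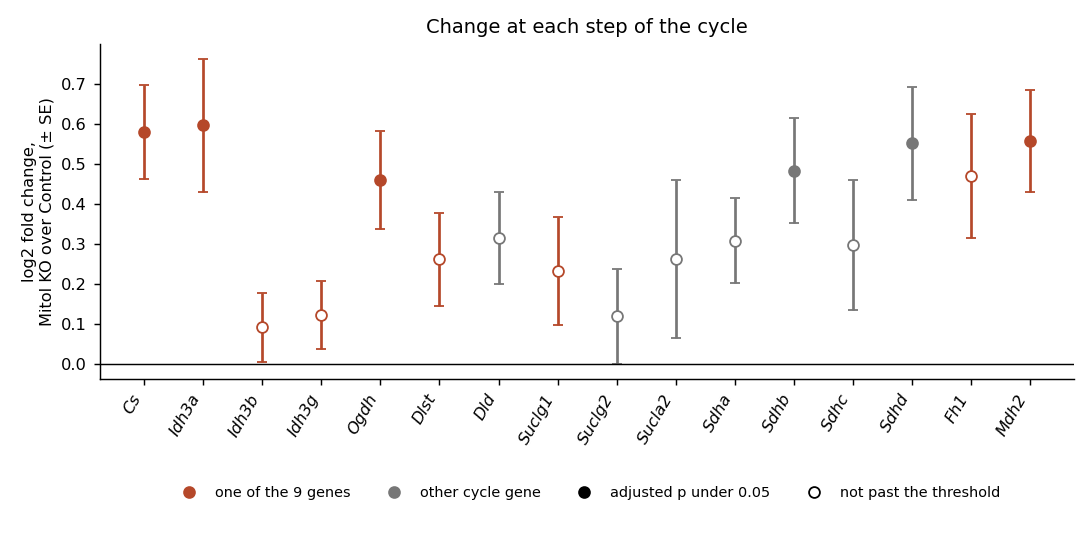
Log2 fold change of MitolΔ/Δ over control HSCs (± SE of the edgeR fit) for 16 genes of the cycle in the order of their steps. Red points are the 9 enzyme genes and grey points 7 other genes, and filled points have an adjusted p under 0.05. All points lie above 0, with Idh3b (0.09) and Idh3g (0.12) the lowest of the 9.

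Subunits of a single enzyme allow a comparison that does not depend on the scaling of the libraries. The log2 ratio of Idh3a to Idh3b was -0.85, -0.69, -0.88 and -1.05 in MitolΔ/Δ replicates 1 to 4 and -1.05, -1.51, -1.16 and -1.79 in the controls. All 4 MitolΔ/Δ libraries were above all controls, the closest pair being MitolΔ/Δ replicate 4 and control replicate 1. The means differed by 0.51 (2-sided exact permutation test over 70 arrangements, p = 0.0286, the smallest this design allows, and 0.114 adjusted over the 4 ratios compared). The ratio of Idh3a to Idh3g differed by 0.48 (2-sided exact permutation test, p = 0.0571, adjusted 0.114), with 3 of 4 MitolΔ/Δ libraries above all controls. After adjustment over the 4 ratios neither of these passed 0.05. A single ratio at the smallest possible p could not pass 0.05 after this adjustment, so this outcome does not show that the ratios were equal.

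Between the regulatory subunits the ratio overlapped in both groups. Idh3b to Idh3g had a mean log2 ratio of 0.18 ± 0.060 (SD, n = 4) in MitolΔ/Δ and 0.21 ± 0.045 (SD, n = 4) in control HSCs, a difference of -0.031 (2-sided exact permutation test, p = 0.457). Ogdh to Dlst differed by 0.18 (2-sided exact permutation test, p = 0.257, adjusted 0.343), with control replicate 2 the lowest at 0.88 and MitolΔ/Δ replicate 1 the highest at 1.52.

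**Figure D3:**
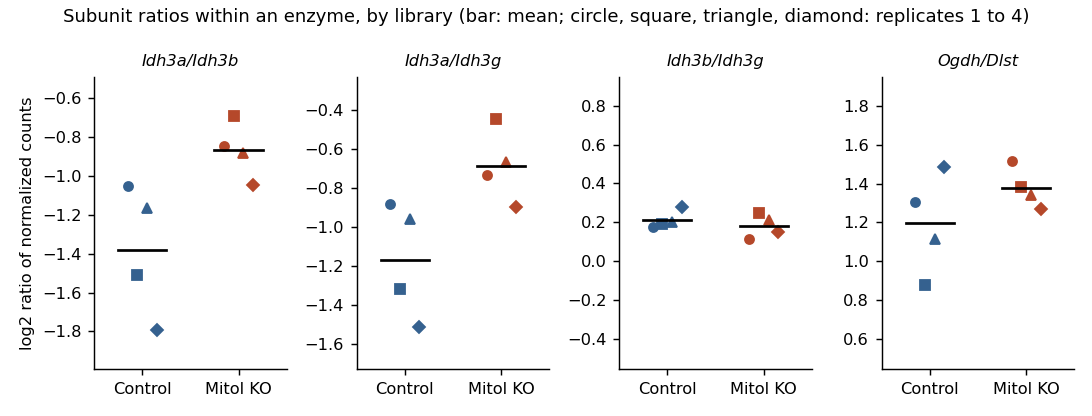
Log2 ratios of normalized counts between subunits of IDH3 and of the 2-oxoglutarate dehydrogenase complex, by library, with a bar at the mean of each group (n = 4) and the same span on each vertical axis. The 4 MitolΔ/Δ libraries lie above the controls for Idh3a/Idh3b, and the groups overlap for Idh3b/Idh3g.

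Levels were compared between genes as CPM (reads scaled to library size) per kilobase of merged exon. In control HSCs, Mdh2 (31.7 ± 3.62, SD, n = 4), Ogdh (29.6 ± 2.38), Idh3b (28.2 ± 1.59) and Cs (25.2 ± 2.03) were highest. Neighbours among these 4 overlapped in their control ranges, so their order is not fixed. Idh3g (19.7 ± 0.615) and Dlst (11.02 ± 1.30) followed, each apart from its neighbours. Suclg1 (7.001 ± 1.09), Idh3a (5.57 ± 1.04) and Fh1 (4.46 ± 0.448) were lowest and overlapped with their neighbours. Per length, the mRNA of the catalytic subunit of IDH3 was the lowest of the 3 in every library. Idh3a made up 10.4% ± 2.03 (SD, n = 4) of the summed per-length level of the 3 subunit genes in control and 14.02% ± 1.35 in MitolΔ/Δ HSCs, from 8.09% in control replicate 4 to 15.8% in MitolΔ/Δ replicate 2, a share that rests on the same counts as the ratios above. In MitolΔ/Δ HSCs, Cs passed Idh3b (36.4 ± 5.57 against 28.9 ± 2.35) in 4 of 4 libraries. With the longest transcript in place of merged exons, Ogdh moved from place 2 to place 4 in the control order.

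**Figure D4:**
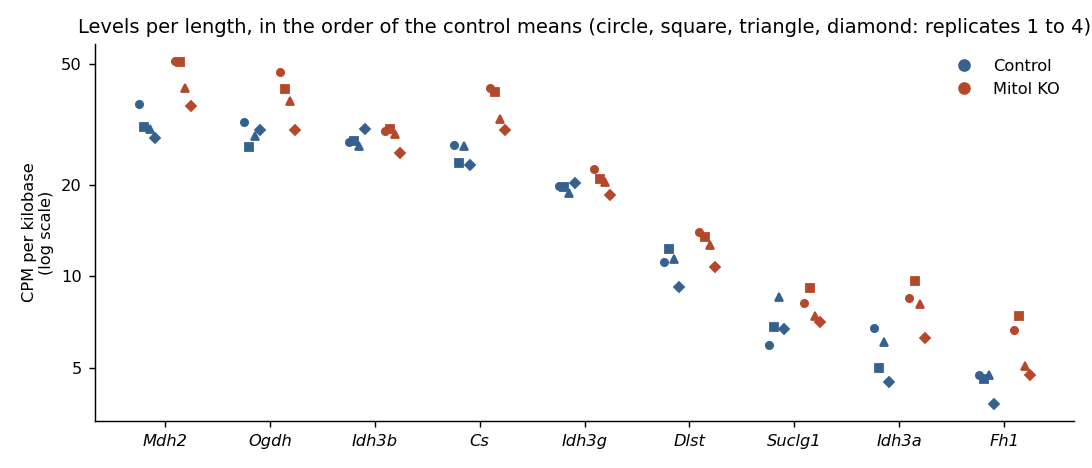
Level of each enzyme gene per length, in CPM per kilobase of merged exon on a log axis, for 4 control (blue) and 4 MitolΔ/Δ (red) libraries, with genes in the order of the control means. Control means run from 4.46 for Fh1 to 31.7 for Mdh2.

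The 9 genes varied together within the MitolΔ/Δ group and less so among the controls. In control replicate 1 the log2 deviation from the group mean ran from -0.17 in Suclg1 to 0.35 in Idh3a. In control replicate 4 it ran from -0.36 in Idh3a to 0.05 in Idh3b. MitolΔ/Δ replicate 4 was the lowest of its group for 9 of 9 genes, where it was the lowest for 29.7% of all tested genes. The highest of the group was MitolΔ/Δ replicate 1 for 5 genes and replicate 2 for 4, where they were the highest for 25.5% and 26% of all tested genes. Averaged over the 9 genes, the log2 deviation from the group mean was 0.15, 0.17, -0.08 and -0.24 in MitolΔ/Δ replicates 1 to 4, and 0.12, -0.03, 0.07 and -0.16 in the controls. Summed G2/M markers were 13170, 12580, 10450 and 6232 in MitolΔ/Δ replicates 1 to 4 and 3025, 2992, 6436 and 4534 in the controls. In the MitolΔ/Δ group the library with the lowest sum was that with the lowest enzyme levels. Among the controls replicate 4 was lowest for 5 enzyme genes, and for 30.9% of all tested genes, without the lowest sum. The part of the cell cycle in these levels was not tested.

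**Figure D5:**
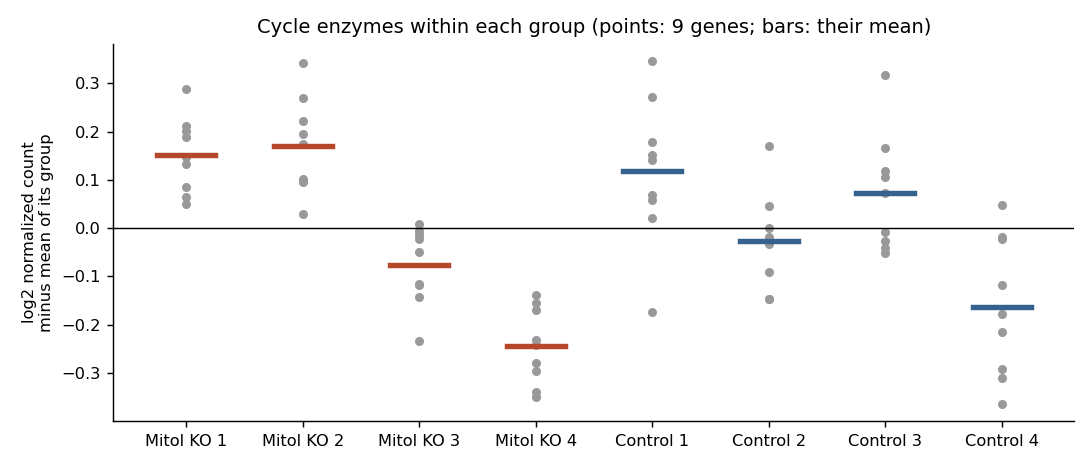
Log2 normalized count of each of the 9 enzyme genes minus the mean of its own group, by library (grey points), with the mean over the genes as a bar, red for MitolΔ/Δ and blue for control. All points of MitolΔ/Δ replicates 1 and 2 lie above 0 and all of replicate 4 below it.

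Over the 8 libraries the log2 normalized counts of the 9 genes were positively correlated in 36 of 36 pairs, with a median Pearson r of 0.85 (0.49 to 0.98). After removal of the group means the median was 0.70 (0.16 to 0.93). These are descriptions over 8 libraries that share 2 groups and their depth. Among 8068 other genes with at least 200 mean normalized counts, the 5 whose log2 counts were most like the mean standardized profile of the enzymes were Ran (r = 0.999), a GTPase of nuclear transport, Ptbp1 (0.996), an RNA-binding regulator of splicing, Sephs2 (0.995), a selenophosphate synthetase, Cpsf1 (0.995), a subunit of the mRNA cleavage complex, and Set (0.994), a histone chaperone. Ran had 3311, 3415, 2317 and 1654 normalized counts in MitolΔ/Δ and 1658, 1336, 1576 and 1153 in control replicates 1 to 4, so that MitolΔ/Δ replicate 4 and control replicate 1 were nearly equal. Ran (log2 fold change 0.88, adjusted p = 0.0226 by edgeR), Ptbp1 (0.43, adjusted p = 0.0313) and Set (0.50, adjusted p = 0.0440) rose, and Sephs2 (0.47, adjusted p = 0.0707) and Cpsf1 (0.26, adjusted p = 0.100) did not pass the test. These 5 genes were picked by likeness over all 8 libraries, and the enzyme profile includes the difference between the groups. That they were higher in MitolΔ/Δ HSCs follows from this choice and is not a separate result.

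Genes around the cycle were counted from lists by role. Of 13 genes of pyruvate entry, which include the pyruvate carrier, the pyruvate dehydrogenase complex with its kinases and phosphatases and pyruvate carboxylase, 0 passed the edgeR test and 1 had an unadjusted p under 0.05 (26.4% of all tested genes), and 7 were higher and 6 lower. That gene was Pdk2, a kinase that inhibits pyruvate dehydrogenase, with a log2 fold change of -0.44 (SE 0.14, adjusted p = 0.0666 by edgeR) and groups that did not overlap. DESeq2 called it, at a log2 fold change of -0.43 (adjusted p = 0.0386), and called no other gene of this list. The 3 subunit genes Pdha1, Pdhb and Dlat had log2 fold changes of 0.18, 0.17 and 0.23.

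Of 17 genes for parallel reactions, anaplerosis and carriers, 16 were tested, with 13 higher and 3 lower. Of these 2 rose, where 4.68% of all tested genes rose. At an unadjusted p under 0.05 there were 6, beside 26.4% of all tested genes. Me2, the mitochondrial malic enzyme that turns malate to pyruvate, had 822, 759, 523 and 456 normalized counts in MitolΔ/Δ and 344, 339, 334 and 350 in control replicates, with a log2 fold change of 0.88 (SE 0.17, adjusted p = 0.0139 by edgeR), larger than that of any of the 9 enzymes. All MitolΔ/Δ libraries of Me2 were above the controls, which lay close together. Aco1, the cytosolic aconitase that doubles as an iron sensor, rose with a log2 fold change of 0.51 (SE 0.12, adjusted p = 0.0243). DESeq2, which called 8.37% of all tested genes as higher, also called Got2, at a log2 fold change of 0.48 (adjusted p = 0.0242). By edgeR Got2 had 0.47 (adjusted p = 0.0624). Idh1, Idh2 and Mdh1, isocitrate and malate dehydrogenases that are not among the 9 genes, did not pass. Their log2 fold changes were -0.20 (adjusted p = 0.428 by edgeR), 0.39 (adjusted p = 0.101) and 0.29 (adjusted p = 0.208).

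Of 9 genes for lipoylation and related 2-oxoacid dehydrogenases, which share Dld and the lipoyl arm with the Ogdh complex, 0 passed the edgeR test (1 at an unadjusted p under 0.05, Dbt, beside the same 26.4% of all tested genes, and 0 by DESeq2), with 4 higher and 5 lower. Of 4 assembly factors of succinate dehydrogenase 0 passed (1 at an unadjusted p under 0.05, Sdhaf1, beside 26.4% of all tested genes), with 4 higher. DESeq2 called Sdhaf1, which had 29.7 to 55.0 normalized counts in MitolΔ/Δ and 15.8 to 24.2 in control HSCs.

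A RefSeq promoter was matched for 8 of the 9 enzymes, all but Idh3a, each at a single place on GRCm39, from a table of build GRCm38.p6. The GC box was in 5 of these 8 promoters, those of Cs, Ogdh, Dlst, Fh1 and Mdh2, and in 35.7% of 32851 promoters of the same length. These 5 promoters held 54.3% to 65.7% G and C, beside a median of 52.7% over all promoters. Those of Idh3b, Suclg1 and Idh3g, without the box, held 50.3%, 51.0% and 60.3%. The ETS core was in 3, those of Idh3b, Idh3g and Dlst, and in 8.86% of all. The YY1 core was in 1, that of Idh3g, and in 6.34% of all. Part of the NRF1 motif (GCATGCG, 3.58% of all promoters), the site of estrogen-related receptors (AAGGTCA, 4.72%) and the E-box (CACGTG, 7.15%) were in 0 of the 8. In Cs and Mdh2, shown above, a GC box began 21 and 2 bases before the start, and in Idh3b an ETS core began 5 bases before it. The matches of Mdh2 and Idh3b run across the start. A match is a description of the letters and not evidence that a factor was bound.

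The calls of single enzymes changed when libraries were left out, while the direction of all 9 did not. Without MitolΔ/Δ replicate 3, the library with the highest red-cell sum, 2 of the 9 passed, Cs and Mdh2, while 9 of 9 were higher and the median log2 fold change was 0.50, and 1.85% of all tested genes rose in that fit. Without control replicate 2, 0 passed by edgeR, 6 had an unadjusted p under 0.05 (21.7% of all tested genes), and Cs had an adjusted p of 0.0584, with 0.995% of all tested genes rising. Without MitolΔ/Δ replicate 1 or 2, or control replicate 3 or 4, Cs alone passed, where 1.43% to 2.48% of all tested genes rose, and without control replicate 1 the same 4 genes passed as with all libraries, where 4.64% rose. Without MitolΔ/Δ replicate 4 the number was 5, with Fh1 at an adjusted p of 0.0240, and 8.77% of all tested genes rose in that fit. DESeq2 called 5, the same 4 and Fh1 (adjusted p = 0.0368), where it called 8.37% of all tested genes as higher. Scaling by library totals, which moved the split of all calls from 770 higher and 616 lower to 602 higher and 829 lower, left Cs and Mdh2 past the threshold, with Idh3a and Ogdh at adjusted p = 0.0504 and 0.0562.

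Reads from overlapping genes are a limit for some of these values, since the strand setting of the counting is not given in the sources used here. Idh3g shares 1437 exon bases with Srpk3 and 301 with Ssr4, which had mean counts of 155 and 771 beside 1004 for Idh3g. Idh3a shares 1875 bases with Acsbg1, which had a mean count of 13.5. The overlaps of the other genes with genes in the table were at most 468 bases, in Dlst with Rps6kl1.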

How the data were processed

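The authors used STAR to align single-end reads of 75 bases to mm39 and samtools to merge the alignments, and they deposited raw counts per gene from subread, without normalization. Annotation and strand setting are not given in the sources used here. Of 23094 rows, each with at least 11 reads in total, 1029 carry no symbol (0.335% to 0.467% of a library's reads) and were left out. Counts were tested with edgeR's quasi-likelihood test (version 4.0.16) after TMM scaling and its default expression filter, with condition as the sole term and Benjamini-Hochberg adjustment over all 16444 tested genes, at 0.05. Normalized counts are reads divided by size factors of DESeq2 (version 1.42.0). Ratios were compared by exact permutation tests. Gene positions are from GENCODE vM39 on GRCm39 and promoters from RefSeq. The enzymes and the lists were chosen with earlier results of these data known. Genes to name were the 9 enzymes, list members past the threshold, other genes of the cycle and of pyruvate entry, Marchf5 and the 5 genes most like the enzymes. Sdhaf1, Dbt, Got2, Idh1, Idh2 and Mdh1 were added after their values were seen. Alternatives were RLE scaling, library totals, no filter, DESeq2, limma-voom (version 3.58.1), a replicate block and leaving out each library. A few genes of the lists are not reported here. Reads carry no molecular identifiers, so they do not count molecules, and intervals between libraries rest on 4 per group. Within each group, no pair of libraries agreed within sampling noise.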

Additional observations from a re-analysis of the deposited data

Results flagged for a closer look

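Among the enzyme lists, 104 sets of 4 libraries were searched for a library far from the rest of its group, and 1 was found, where chance flags about 1 in 20. Dhtkd1, a 2-oxoadipate dehydrogenase related to Ogdh, had 107 normalized counts in control replicate 1 and 55.6 to 61.1 in the other 3 controls. None of the 9 enzymes of the report was far from its group by this measure.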

How the results depend on the processing

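Direction held for 9 of 9 enzymes under every alternative, with a median log2 fold change of 0.41 to 0.48 over other scalings, filters and tools and of 0.35 to 0.58 when each library was left out. The enzymes past the threshold numbered 4 in edgeR with RLE scaling, without a filter and in limma-voom, 2 with library totals and 5 with DESeq2. The shares of all tested genes that rose in these fits were 5%, 3.47%, 4.47%, 3.66% and 8.37%, in the same order. With library totals 1 of the other cycle enzymes and 1 gene of pyruvate entry (Pdk2) passed. DESeq2 gave 2317 genes in all, 3 parallel and cytosolic enzymes (Aco1, Got2 and Me2), 1 of pyruvate entry and 1 assembly factor of succinate dehydrogenase (Sdhaf1). Whether the replicate numbers pair the libraries is not given by the labels, and their correlations are too few to decide it. Those of same-numbered libraries ran from -0.067 to 0.078, and 2 of 4 MitolΔ/Δ libraries correlated best with their own number. With a replicate block 1652 genes, 5 enzymes and 1 gene of pyruvate entry (Pdk2) passed, where 1386 genes and 4 enzymes passed without it. Of all tested genes, 5.82% rose with the block and 4.68% without it. With each library left out, the counts ran from 359 to 2501 for all genes, 0 to 5 for the 9 enzymes, 0 to 3 for the other cycle enzymes, 1 to 5 for parallel and cytosolic enzymes and 0 to 1 for pyruvate entry. In these fits 0.995% to 8.77% of all tested genes rose. Me2 passed in all these fits. The difference in log2 ratio of Idh3a to Idh3b ran from 0.38 to 0.62 and was 0.51 with a pseudocount of 1. With longest transcripts 6 of 9 enzymes kept their place in the control order of levels. With 100 cells and 4 libraries a group, changes as small as those of Idh3b and Idh3g could not be told from 0.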

Other observations

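Dbt and Bckdhb, which encode subunits of the branched-chain 2-oxoacid dehydrogenase, the relative of the Ogdh complex that degrades branched-chain amino acids, lay lower in every MitolΔ/Δ library than in every control library, with log2 fold changes of -0.37 (adjusted p = 0.160 by edgeR) and -0.25 (adjusted p = 0.220). Got1, the cytosolic aspartate aminotransferase of the malate-aspartate shuttle, lay higher in every MitolΔ/Δ library, with 182 to 210 normalized counts against 81.7 to 175 and a log2 fold change of 0.61 (adjusted p = 0.125 by edgeR). These genes were chosen after their values were seen, and groups that did not overlap were found in 15.4% of all tested genes.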
